A study of Sus scrofa domesticus with 4 samples.

Results

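The genes described here are those of the cytosolic ribosomal proteins, measured in cultured slices of pig myometrium (uterine smooth muscle) with or without adiponectin. They were chosen by name: every probe whose RefSeq accession belongs to a pig gene with a symbol starting RPL or RPS and a digit, or to RPSA, RPLP0, RPLP1 or RPLP2, with the RPS6K kinases left out. The rule gave 187 of the 43603 probes of the array, for 37 of the 3029 genes that could be named. The reference table lists 84 symbols of this form, and no probe was matched by accession to the other 47, among them RPS6, RPLP1 and RPS27A. The rule used no measured value.

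The tissue came from 4 mature gilts of a Large White by Polish Landrace cross, aged 7 to 8 months and weighing 120 to 130 kg, on days 15 to 16 of gestation. Slices of uterine horn muscle were held in culture medium for 2 h and then for 24 h more with 10 µg/ml of adiponectin, a hormone made by fat cells, or with no addition. Breed, stage and time in culture were the same in both conditions. Each of 4 Agilent 2-colour arrays carried 1 treated and 1 untreated RNA, and the dye fields of the labels give a swap: treated RNA in Cy5 on arrays 1 and 3, while on arrays 2 and 4 it carried Cy3. The labels' protocol text instead describes treated RNA in Cy5 only. The dye fields were followed, and the deposited series table turns arrays 2 and 4 in the same way. Its values were compared for probes with 1 spot that were well above background in both channels of an array. Of these, 100% lay within 0.01 of the treated-over-untreated ratio used here. The direction of every value below rests on those fields. If the protocol text held for all arrays, the dye coefficient given further on would be the change, mixed with any dye bias. The labels name no gilt for an array, so the spread between arrays may be partly technical. Slices are pieces of whole tissue, in which fewer cells of a type and less RNA per cell cannot be told apart.

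Ribosomes are built from RNA and a large set of small proteins. The small or 40S subunit reads the message, and the large or 60S subunit joins the amino acids. The messages of ribosomal proteins are abundant in every tissue and start with a stretch of pyrimidines (the TOP element) through which the mTOR kinase pathway controls their translation. Their RNA levels therefore need not follow how much protein is made. Because the levels are high and even, several of these genes, RPL13A, RPLP0 and RPS18 among them, serve as reference genes in quantitative PCR.

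All 187 probes were well above background in both conditions on all 4 arrays, and none was saturated. A pair of them, 1 of RPLP0 and 1 of RPS3A, had a spot marked as an outlier on 1 array and were not tested, which left 185 probes. Every one of the 37 genes kept at least 1 tested probe. No member was lost to the filter on dim probes. The brightest tested probe stands for a gene below unless a probe is named. The log2 signal of the untreated channel had a median over these 37 probes of 15.74, 16.44, 15.90 and 16.21 on arrays 1 to 4. The lowest mean over arrays was 12.16, for RPL26L1, and the highest 17.05, for RPS20. Signals of different probes depend on the probe as well as on the RNA, so no order of genes is drawn from them. Within a probe, the untreated signal had an SD over the 4 arrays between 0.08 (RPL36AL) and 0.64 (RPLP0). By the dye fields, untreated RNA was in Cy3 on arrays 1 and 3 and in Cy5 on arrays 2 and 4. Dye and RNA level therefore cannot be told apart in these medians and SDs.

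None of the 37 ribosomal protein genes was called higher or lower under adiponectin. The median log2 change, treated over untreated, of the 37 genes was -0.02, a fold of 0.989, and its sign was not stable, at 0.03 with normexp and loess and from -0.09 to 0.06 with 1 array left out. Single genes ran from -0.37 (RPL13A) to 0.17 (RPL7). In 34 of the 37 genes the 95% interval of the change lay wholly between -0.5 and 0.5 on the log2 scale, as it did in 872 of the 2134 named genes tested (40.9%). The exceptions were RPL13A, RPL3 and RPL10, whose intervals reached further down. In 36 genes (97.3%) the interval included no change, close to the 94.5% of the named genes.

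The test was limma on the log2 ratio with a treatment and a dye coefficient, adjusted by Benjamini-Hochberg over all 22133 tested probes. It called 0 of the 185 member probes and 0 of the 37 member genes, and the smallest adjusted p among them was 0.856. It also called 0 of all tested probes and 0 of all 2134 named genes in either direction (0.0% of each), the same share as among the members. At an unadjusted limma p under 0.05, 2 member probes were lower, 1 of RPL13A and 1 of RPS10, and 0 were higher. Over all tested probes that limit was passed by 1.92% on the lower side and by 3.79% on the higher side. Counted by gene, 1 member was lower (RPL13A) and 0 were higher, beside 2.44% lower and 3.09% higher of the named genes.

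Slightly more members lay below 0 than above it, by small amounts. Of the 37 genes, 22 (59.5%) had a log2 change below 0, against 54.4% of the named genes, and of the 185 probes, 111 did, against 50.5% of all tested probes. After normexp background correction and loess the count was 15 of 37 genes, so the direction of this majority turned with the normalisation. From the lower to the upper quartile, the 185 member probes lay between -0.11 and 0.04, and all tested probes between -0.13 and 0.14.

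**Figure D1:**
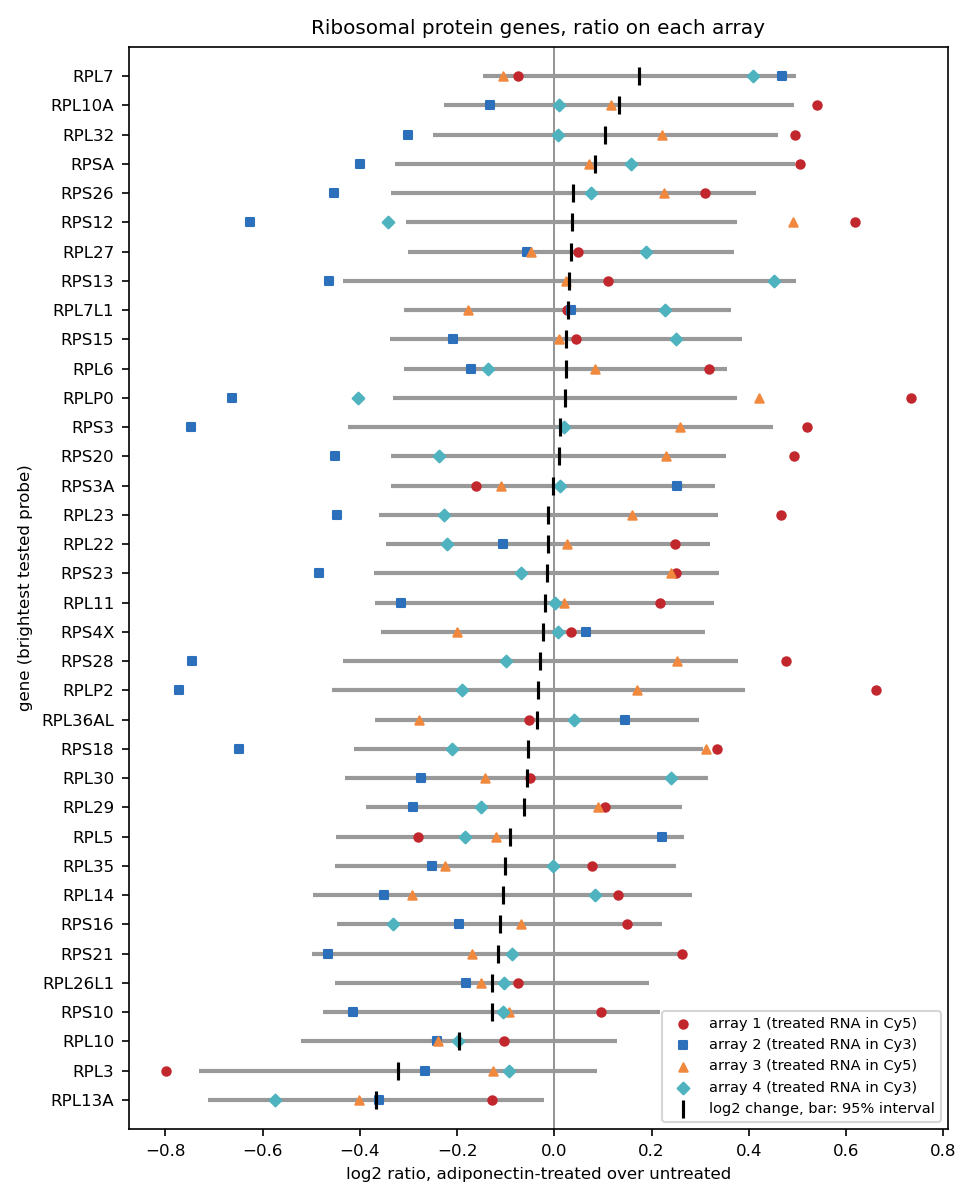
Log2 ratio of treated over untreated RNA (horizontal axis) for the brightest tested probe of each gene shown (rows), with 1 coloured point per array, a black tick for the log2 change and a grey bar for its 95% interval. RPL13A is the 1 gene whose bar, from -0.71 to -0.02, stays below 0, and for genes such as RPLP0 and RPS12 the arrays with treated RNA in Cy5 lie to the right and those with treated RNA in Cy3 to the left.

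The 16 small subunit genes had a median ratio of 0.28, -0.45, 0.06 and -0.03 on arrays 1 to 4, apart on arrays 1 and 2. Their median log2 change over the 4 arrays was 0.00, from -0.13 (RPS10) to 0.11, with 8 genes on either side. RPS10, a protein of the 40S head that is marked with ubiquitin when ribosomes collide, had ratios of 0.10, -0.41, -0.09 and -0.10 on arrays 1 to 4, low on array 2 and near 0 elsewhere. RPS16, whose tail reaches the decoding site, stood at 0.15, -0.20, -0.07 and -0.33. Neither gene had the same sign on all arrays, and their log2 changes were -0.13 ± 0.14 (SE from limma, n = 4 arrays) and -0.11 ± 0.13.

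RPSA, which besides its place in the 40S subunit was described as a receptor for laminin, had ratios of 0.51, -0.40, 0.07 and 0.16, high on array 1 and low on array 2. Its log2 change was 0.08 ± 0.17. RPS12 stood at 0.62, -0.62, 0.49 and -0.34, and RPS3, which lines the channel where messages enter, at 0.52, -0.75, 0.26 and 0.02. RPS12 was high on both arrays with treated RNA in Cy5 and low on both others, and its mean was 0.04. RPS3 averaged 0.01. RPS4X, encoded on the X chromosome in mammals, had ratios of 0.04, 0.07, -0.20 and 0.01, all close to 0. Its 14 tested probes lay between -0.08 and 0.08. RPS18, one of the reference genes, stood at 0.33, -0.65, 0.31 and -0.21, with a log2 change of -0.05 and an interval from -0.41 to 0.31.

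The 21 large subunit genes had array medians of 0.08, -0.25, -0.11 and -0.09, and a median log2 change of -0.03, with 14 below 0 and 7 above. They held both ends of the range of log2 changes, and the difference between the subunits was not tested. RPL13A is a protein of the 60S surface that can be released to silence inflammatory messages in myeloid cells. Its ratios were -0.13, -0.36, -0.40 and -0.58 on arrays 1 to 4, all below 0 and weakest on array 1. The log2 change was -0.37 ± 0.14, a fold of 0.776 with an interval from 0.611 to 0.985. The unadjusted limma p was 0.0408 and the adjusted p 0.856. The other probe of RPL13A was also below 0 on every array, at -0.07, -0.38, -0.34 and -0.35, with a log2 change of -0.28. When both probes were averaged, the gene no longer reached the unadjusted limit, nor did it without array 2, without array 3 or without array 4.

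RPL3, which reaches toward the centre where peptide bonds form, had ratios of -0.80, -0.27, -0.13 and -0.09. Array 1 was far lower than the others. The log2 change was -0.32 ± 0.17 over all arrays and -0.15 without array 1. RPL10, which is added last and lets the subunits join, had even ratios of -0.10, -0.24, -0.24 and -0.20, and a log2 change of -0.20 ± 0.13 with an interval from -0.52 to 0.13. All 5 of its probes were below 0.

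With RPL26L1, these were the 4 genes below 0 on all 4 arrays, 10.8% of the members against 7.5% of the named genes. By probe it was 23 of 185 members (12.4%) against 6.24% of all tested probes, and on the other side 2 of 185 (1.08%) lay above 0 on all arrays, against 6.36%. By gene, 1 of 37 lay above 0 on all arrays, against 5.53% of the named genes. Probes of a gene share the RNA they measure and are not separate observations, and a value that is below 0 on every array here need not differ from 0 beyond the spread of the arrays.

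On the higher side, RPL7, a long-known 60S protein beside the 5S RNA, stood at -0.07, 0.47, -0.11 and 0.41, above 0 only on the 2 arrays with treated RNA in Cy3. The log2 change came to 0.17 ± 0.13, and the fold to 1.13 (0.903 to 1.41). RPL10A, of the mobile stalk that guides used transfer RNA out, had ratios of 0.54, -0.13, 0.12 and 0.01. Array 1 stood apart upward, and the log2 change was 0.13. RPL32 had ratios of 0.49, -0.30, 0.22 and 0.01 and a log2 change of 0.11. The limma adjusted p was 0.878 for RPL7, 0.908 for RPL10A and 0.926 for RPL32.

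RPL5 and RPL11 carry the 5S RNA into the 60S subunit and, when assembly fails, bind the p53 regulator MDM2. RPL5 had ratios of -0.28, 0.22, -0.12 and -0.18, with a log2 change of -0.09 (-0.45 to 0.27). It was the gene with most probes, and all 18 had a log2 change below 0, from -0.28 to -0.04. RPL11 had ratios of 0.22, -0.32, 0.02 and 0.00 and a log2 change of -0.02. Its other 2 probes were below 0 on every array, with log2 changes of -0.24 and -0.23. None of these passed the test.

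The stalk that recruits elongation factors to the ribosome was represented by RPLP0 and RPLP2. RPLP0 had ratios of 0.73, -0.66, 0.42 and -0.40 and RPLP2 of 0.66, -0.77, 0.17 and -0.19. Both split by dye: high on arrays 1 and 3, low on arrays 2 and 4. The log2 changes, which balance the dyes, were 0.02 (interval -0.33 to 0.38) for RPLP0 and -0.03 (interval -0.46 to 0.39) for RPLP2. RPL22, an RNA-binding protein that ribosomes can lack, stood at 0.25, -0.10, 0.03 and -0.22, with a log2 change of -0.01.

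A few members are copies or relatives of better known subunits. RPL7L1, a relative of RPL7 that works in the nucleolus on 60S precursors, had ratios of 0.03, 0.03, -0.18 and 0.23 and a log2 change of 0.03. RPL26L1, a close copy of RPL26, had ratios of -0.07, -0.18, -0.15 and -0.10 and a log2 change of -0.13. RPL36AL, a close copy of RPL36A, stood at -0.05, 0.15, -0.28 and 0.04, with a log2 change of -0.04. Near-identical copies and the many processed pseudogenes of ribosomal protein genes may add signal to a probe, so the gene that a probe reads is uncertain, most of all for such pairs. This was not tested.

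A further 15 genes, RPL6, RPL14, RPL23, RPL27, RPL29, RPL30, RPL35, RPS3A, RPS13, RPS15, RPS20, RPS21, RPS23, RPS26 and RPS28, had log2 changes between -0.11 (RPS21) and 0.04 (RPS26). RPS28 was at -0.03. RPL35, at the mouth of the tunnel where new chains leave, was at -0.10. RPL30, which also binds selenoprotein messages, was at -0.06. RPS26, at the exit of the message channel, was at 0.04.

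The probes of one gene differed in log2 change by amounts that were not small beside the changes themselves. Of the 31 genes with more than 1 tested probe, 13 had every probe below 0, 1 (RPS20) had every probe above 0, and 17 had probes of both signs. The same count over other named genes is not given, and probes of a gene share the RNA they measure. No direction of the members is read from it. The SD between probes of a gene had a median of 0.06, and the SD between the genes' median probes was 0.10. The size of the log2 change had a median of 0.04 over the 37 genes. In 20 genes the probes lay within 0.2 of each other, and in 5 they spanned more than 0.3, among them RPL32, RPS3, RPS10 and RPL6. Of the genes with both signs, the probes spanned -0.26 to 0.29 for RPL32, -0.20 to 0.23 for RPS3, -0.03 to 0.27 for RPL6 and -0.14 to 0.09 for RPL23. For RPLP0 the span was -0.16 to 0.03, for RPS23 -0.14 to 0.05, for RPL7 -0.06 to 0.18, for RPSA -0.04 to 0.18 and for RPS3A -0.04 to 0.14. It was -0.01 to 0.26 for RPL10A, -0.01 to 0.12 for RPL22, -0.08 to 0.08 for RPS4X and -0.01 to 0.08 for RPS12. The narrowest were RPS15 (-0.04 to 0.02), RPS26 (-0.01 to 0.04) and RPL7L1 (-0.01 to 0.03). For these genes the sign of the change depends on the probe.

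**Figure D2:**
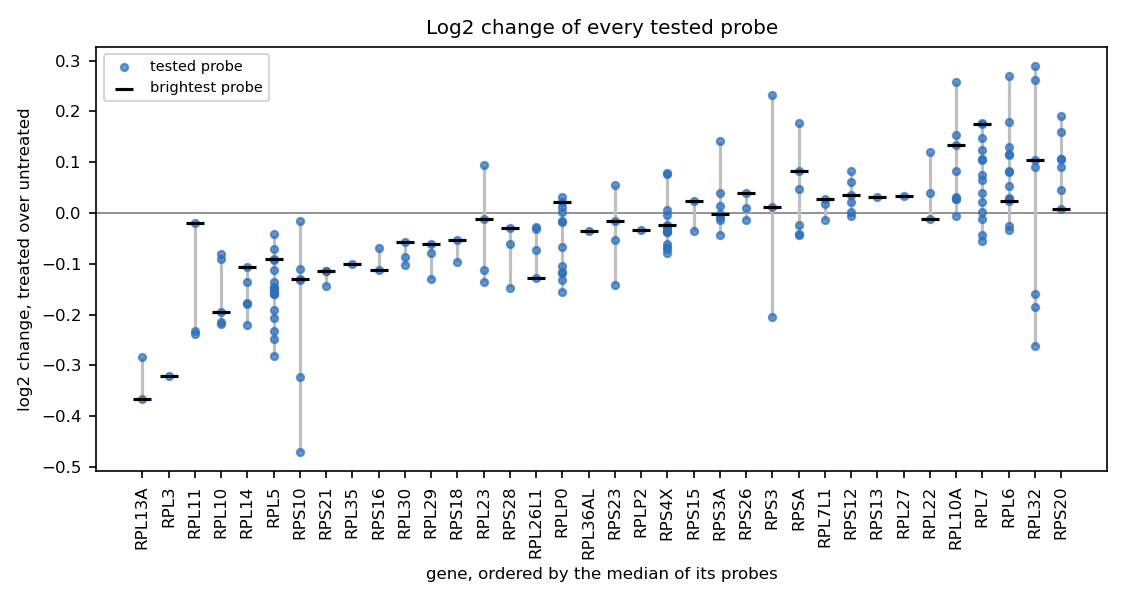
Log2 change, treated over untreated (vertical axis), of each tested probe (blue points) of the genes shown, ordered by the median of their probes, with the brightest probe of each gene as a black dash. Over all members, the probes of 20 of the 31 genes with several lie within 0.2 of each other, while RPL32, RPS3 and RPS10 span 0.4 or more.

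RPS10 held the lowest probe of all members, A_72_P476909, with ratios of -0.45, -0.79, -0.16 and -0.49 and a log2 change of -0.47. The unadjusted limma p was 0.0181 and the adjusted p 0.856. A further probe of RPS10, A_72_P505397, stood at -0.32, -0.67, -0.10 and -0.21. Both were below 0 on every array. These 2 were the dimmest of the 6 RPS10 probes, at mean untreated log2 signals of 8.90 and 9.17, and the other 4, at 12.98 to 15.57, had log2 changes between -0.13 and -0.01. What these dim probes bind was not tested.

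In RPL32 the probes fell into separate patterns across the arrays. For 3 probes the ratio was below 0 on arrays 1 to 3 and between -0.11 and 0.10 on array 4. The other 4 stood between 0.43 and 0.51 on array 1, between -0.59 and -0.30 on array 2 and between 0.22 and 0.34 on array 3. On array 4 these 4 parted again, at 0.88, 0.87, 0.15 and 0.01. RPS3 also parted on array 1, with 1 probe at -0.32 and 2 at 0.52 and 0.75. These sets of probes were seen afterwards and got no test.

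**Figure D3:**
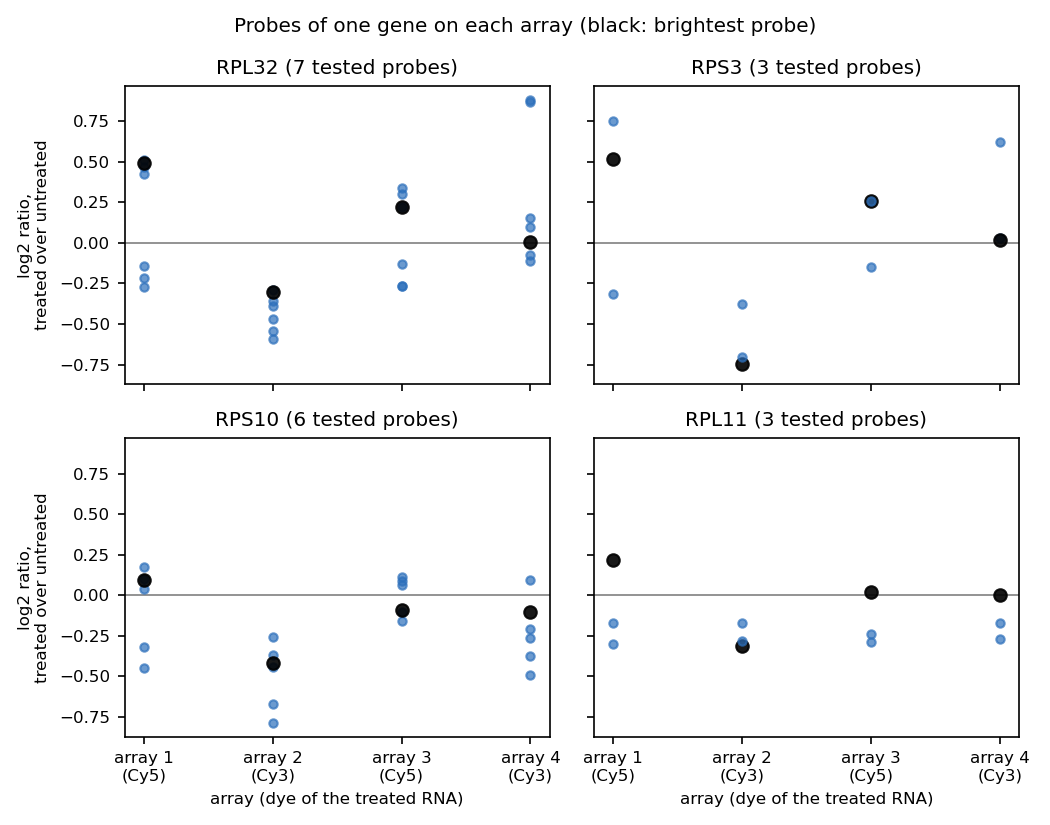
Log2 ratio of treated over untreated RNA (vertical axis) on each array (horizontal axis, with the dye of the treated RNA) for every tested probe of RPL32, RPS3, RPS10 and RPL11, with the brightest probe in black. On array 1 the RPL32 probes form 2 sets, and on array 4 a pair of RPL32 probes stands far above the others of the gene, at 0.88 and 0.87.

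Such departures were counted over the 27 genes with at least 3 tested probes, which hold 171 probes. A probe lay more than 0.5 from its gene's median in 7 cases on array 1, 2 on array 2, 1 on array 3 and 9 on array 4. On array 4, 8 of the 9 lay above the median of the gene. They included 1 probe each of RPL6 (0.96), RPL10A (0.96), RPS3 (0.62), RPS20 (0.37) and RPL10 (0.21) and the pair of RPL32, and the 1 probe below belonged to RPL7 (-0.51). Array 4 differed from the other arrays in slide barcode, scan date or both, per the file headers. Whether that bears on these probes was not tested. The typical probe stayed close: the median distance from the gene's median was between 0.07 and 0.09 on each array.

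The array values of many members split by dye. The dye coefficient of the fit is the part of a ratio that turns its sign with the dye, positive where Cy5 reads high. It was larger in size than the log2 change in 27 of the 37 genes (73.0%), and among the 2134 named genes in 50.3%. Its median over the members was 0.14, against 0.03 over the named genes, and 28 of 37 (75.7%) were above 0, against 56.1% of the named genes. It exceeded 0.3 in size in 8 genes (21.6%, against 17.4%), and was largest in RPLP0 (0.55), RPS12 (0.52) and RPLP2 (0.45). Lowest was RPL7, at -0.26. It differed between probes of a gene: over its 12 tested probes RPLP0 ran from -0.06 to 0.55, and over its 13 RPL6 ran from -0.45 to 0.18. With all 185 probes the median was 0.03, lower than over the brightest probe of each gene. By probe, the coefficient exceeded 0.3 in size in 11.9% of the members, against 19.7% of all tested probes. It was above 0 in 57.8%, against 51.1%, and larger in size than the log2 change in 64.3%, against 53.2%.

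Turned as treated over untreated, Pearson's r over the 185 probes was 0.71 between arrays 1 and 3, -0.56 between arrays 1 and 2 and -0.49 between arrays 2 and 3. Taken as Cy5 over Cy3 without turning, those 3 values were 0.71, 0.56 and 0.49. Arrays 1 to 3 were thus alike in these genes without the turn that the dye fields ask for. An effect of dye and a treated RNA in Cy5 on all 3 arrays cannot be told apart by these values. Read as treated in Cy5 on all 4 arrays, a reading added after the data were seen, the member median was 0.14 and 9 genes were below 0. The limma test then called 0 members after adjustment. At an unadjusted limma p under 0.05 were 7 genes, led by RPLP0 at 0.55 and RPS12 at 0.52. Under this reading 75.7% of the members lay above 0, against 56.1% of the named genes. The share of all probes at the unadjusted limit is not given for it. The 7 genes are therefore not read as a result about the members. By probe, array 4 followed arrays 1 and 3 little, with turned values of 0.07 and -0.02, and array 2 somewhat, with 0.24. Over the 37 genes, its turned values were -0.19 with array 1, -0.19 with array 3 and 0.37 with array 2. Taken as Cy5 over Cy3, these gene values were 0.19, 0.19 and 0.37. Over all tested probes the turned values were -0.05 for arrays 1 and 3, -0.01 for arrays 1 and 2, -0.31 for arrays 2 and 3 and 0.25 for arrays 2 and 4. These are correlations over probes or genes, which share the arrays, and probes in part share the gene. They are given as a description.

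By array, the median ratio of the 37 genes was 0.15, -0.29, 0.02 and -0.07, and of the 185 probes -0.01, -0.16, -0.05 and -0.03. Array 2 was the lowest in both, with 7 of 37 genes above 0, against 28 on array 1, 20 on array 3 and 17 on array 4. Array 2 was also the lowest over the named genes, with a median of -0.10 and 39.1% above 0, beside 47.4%, 56.4% and 48.0% on arrays 1, 3 and 4. The spread of the member probes was narrower than that of all tested probes on each array. Its SD was 0.28, 0.32, 0.19 and 0.28 on arrays 1 to 4, beside 0.49, 0.51, 0.50 and 0.43. The members were also far brighter, with a median untreated log2 signal of 15.72 for the 185 probes against 8.29, and the part of signal in the spread was not tested.

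**Figure D4:**
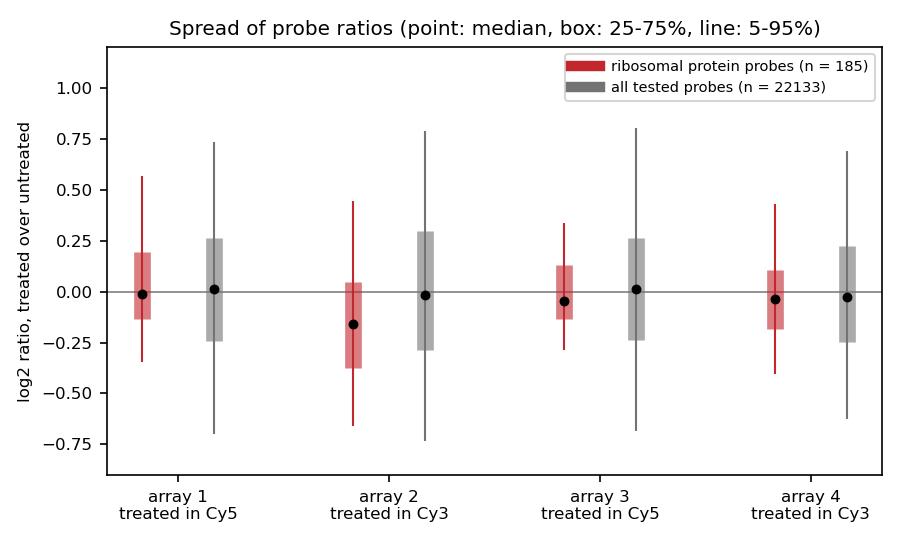
Log2 ratio of treated over untreated RNA (vertical axis) on each array for the 185 ribosomal protein probes (red) and all 22133 tested probes (grey), with the median as a point, the lower to upper quartile as a box and the range from the 5th to the 95th percentile as a line. Red boxes are shorter than grey ones on each array, and the red median of array 2, at -0.16, is the lowest.

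The standard error of a member gene was between 0.13 and 0.19, and the 95% interval reached a median of 0.35 to either side. By these intervals, changes smaller than that could not be told from 0 here. Standard errors and intervals are those of limma, which draws the variance of a probe toward a value estimated over all tested probes. They are not the spread of the arrays alone: RPL10 had an SD over arrays of 0.06 and a standard error of 0.13. Leaving out 1 array at a time turned the sign of 24 of the 37 genes at least once, while 13 genes kept theirs. RPL13A stayed between -0.44 and -0.30, RPL10 between -0.23 and -0.16 and RPL7 between 0.16 and 0.19. Each omission kept the dye coefficient, and RPL7 was above 0 only on the arrays with treated RNA in Cy3. Its narrow range therefore does not show that the arrays shared a sign.

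Other genes of the ribosome and of its control were sparse among the named probes, and 0 of the 26 tested over 5 lists passed the limma test. RACK1 encodes a subunit whose symbol the rule does not take. RACK1, a scaffold on the 40S head, was at -0.22, -0.30, -0.02 and -0.12, with a log2 change of -0.16.

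Of 18 genes listed as translation factors and other messages with a TOP element, 4 were tested, with a median of -0.21 and 3 below 0. TPT1, a very abundant growth-related protein, stood at -0.09, -0.61, -0.00 and -0.57, lower on the arrays with treated RNA in Cy3, with a log2 change of -0.32 ± 0.13. EEF1A1, the factor that brings transfer RNA to the ribosome, had ratios of 0.18, -0.56, -0.05 and -0.69 and a log2 change of -0.28. Neither passed (limma adjusted p = 0.856 for both).

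The 8 tested genes of ribosome assembly, of 58 listed, had a median of 0.19, with 6 above 0. UTP3, which takes part in processing small subunit RNA, had ratios of 0.59, 0.65, 0.41 and 0.91 and a log2 change of 0.64 (adjusted p = 0.856), and DKC1, the enzyme of pseudouridine formation in ribosomal RNA, was at 0.23. The 7 mitochondrial ribosomal proteins had a median of -0.05, from -0.18 (MRPS11) to 0.05 (MRPL52), with MRPL58 at -0.09. The 5 tested genes of the mTOR pathway, of 31 listed, had a median of 0.00. EIF4G1, the scaffold of the cap-binding complex, was at 0.22, and PDCD4, an inhibitor of initiation, at -0.17. The median over all named genes tested was -0.02, and with so few genes in a list nothing particular is read from these medians.

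**Figure D5:**
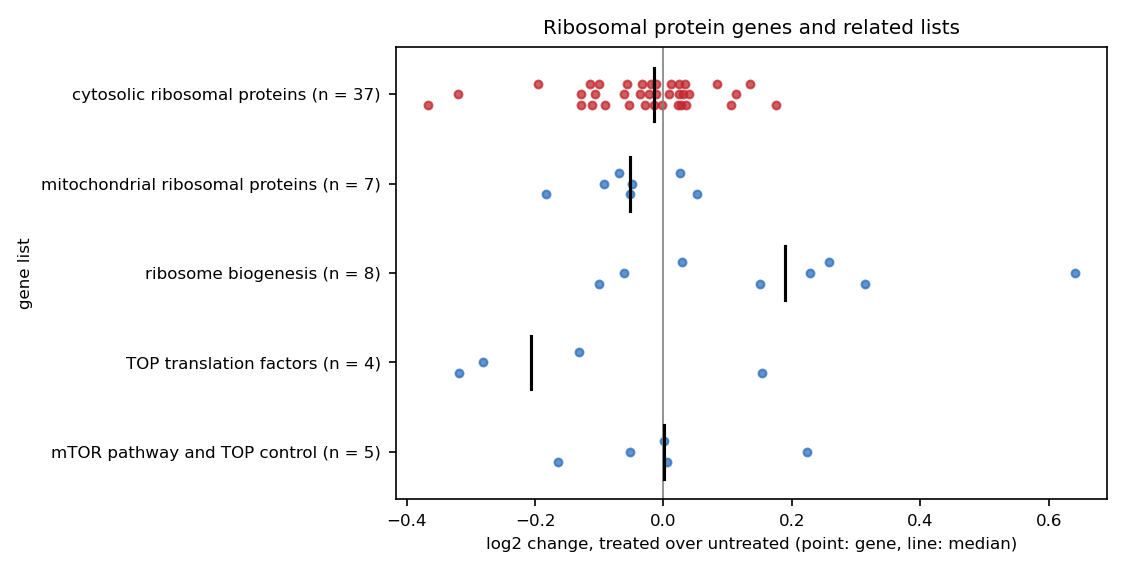
Log2 change, treated over untreated (horizontal axis), of each tested gene (points) in the cytosolic ribosomal proteins and 4 related lists (rows), with the list median as a black line. The 37 ribosomal protein genes lie between -0.37 and 0.17, and UTP3, at 0.64, is the farthest point of the plot.

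The tissue was checked against markers of the cell types it could hold. Of 10 smooth muscle markers listed, 5 were tested: ACTA2, CNN1, DES, MYLK and SMTN. All 5 were well above background on every array in both conditions. So was every tested marker of the other cell types, and this flag does not set smooth muscle apart. The median ratio of the smooth muscle genes was -0.66, -0.10, 0.95 and -0.25 on arrays 1 to 4, and that of 5 macrophage markers 0.52, -0.18, 2.22 and 0.90. For 3 epithelial markers it was -0.09, 1.24, -0.95 and 0.98, for 4 endothelial markers 0.07, -0.23, -0.04 and 0.27, and for the 2 tested of 6 lymphocyte markers 0.33, -0.35, 0.41 and 0.03. CD2, CD3D, CD3E and CD79A were not tested, and no erythrocyte marker was matched. The smooth muscle and macrophage medians were highest on array 3, where the median of the ribosomal protein genes was 0.02. Over the 4 arrays, the median log2 change was 0.81 for macrophage, 0.43 for epithelial and 0.10 for lymphocyte markers. It was 0.04 for smooth muscle and 0.01 for endothelial markers. All 5 macrophage markers had a log2 change above 0, and their smallest limma adjusted p was 0.856. The part of cell content in the ratios above was not tested.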

How the data were processed

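Probe intensities from 4 two-colour arrays were deposited as scanner files. Per the file headers, Agilent Feature Extraction 10.7.3.1 subtracted background and normalised dyes to give the processed intensity and its log10 ratio of Cy5 over Cy3. The deposited series table holds log2 ratios. Its slopes against the scanner ratios, 1.0 on arrays 1 and 3 and -1.0 on arrays 2 and 4, show the same turn as the dye fields. They cannot show which dye held treated RNA. The build behind the array's probes is not given in the sources used here, and no coordinates are printed.

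From these, log10 ratios were converted to log2 and turned by the dye labels. Outlier-marked and control spots were left out. Tested probes were those flagged well above background on 3 or more arrays in the treated or the untreated channel, with a value on all 4. limma 3.58.1 (R 4.3.3) fitted a treatment and a dye coefficient (two-sided). The Benjamini-Hochberg adjustment ran over all tested probes, with calls at 0.05. Names came from RefSeq accessions of assembly Sscrofa11.1 (6700 of 7125 probes with such an accession matched). The fit was also run on simulated data, with errors drawn independently for each probe and array. Probes of a gene share the RNA they measure, so nothing about these arrays is drawn from that run. The alternatives were normexp (offset 50) with loess, median centring, the series table, no dye term, slide as a block, other filters, probe averaging and leaving out each array. The slide block set array 4, which differed in slide barcode, scan date or both, apart from the other arrays. Treated RNA in Cy5 on all arrays was added after the data were seen.

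Members, lists and tests were chosen with earlier results of these data known. Array values are given for the 6 member genes of smallest unadjusted p on either side of 0, for a listed set (RPLP0, RPLP2, RPSA, RPL5, RPL11, RPS3, RPS4X, RPL13A and RPL22), and for a paralog of another member. Members whose probes differ in sign are named with their range, and so are the 2 genes of smallest p in each related list. RPS18, RPL36AL, the values of single probes and those of the remaining members fall outside this rule and were chosen after their values were seen. A small number of items are not reported here and are left out of the plots by gene.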

Additional observations from a re-analysis of the deposited data

Results flagged for a closer look

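Of 48 sets of 4 array values checked for 1 array far from the other 3, 2 stood out, where chance gives about 2.4. Neither was a cytosolic ribosomal protein gene. MRPS11, a mitochondrial ribosomal protein, had a ratio of 0.289 on array 3, whereas arrays 1, 2 and 4 gave -0.31, -0.41 and -0.30. For EIF4G1 the ratio of array 2 was -0.114, and arrays 1, 3 and 4 gave 0.31, 0.35 and 0.35.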

How the results depend on the processing

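No member gene passed the adjusted threshold under any of the alternatives, and the smallest adjusted limma p of a member gene in any of them was 0.43. The median of the member genes was 0.03 with normexp and loess and lay between -0.09 and 0.06 with 1 array left out. The number of member genes with an unadjusted p under 0.05 was 2 with normexp and loess (RPL13A and RPL7), 4 without the filter on dim probes (RPL10, RPL13A, RPL26L1 and RPL7), 0 with slide as a block and 0 when probes of a gene were averaged, and 0 to 1 with 1 array left out. The 1 was RPL13A without array 1 and RPL3 without array 3. The share of all probes at the unadjusted limit is not given for these settings. Differences between these counts are therefore not read as a result about the members. The number of member genes below 0 was 14 to 29 with 1 array left out (14 without array 2, 29 without array 4). Over all probes, 0 to 12 passed the adjusted threshold with 1 array left out, 12 of them without array 3, and the brightest probe of no member gene was among them.

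Signs of member genes turned in 44 cases outside the omissions. With normexp and loess the log2 changes were RPL11 0.12, RPL14 0.037, RPL22 0.029, RPL23 0.028, RPS23 0.030, RPS28 0.020 and RPS3A 0.051. With median centring the value was RPS3A 0.0019. With slide as a block, which gives the same estimates as leaving out array 4, they were RPL22 0.017, RPL27 -0.027, RPL5 0.011, RPL7L1 -0.021, RPLP0 -0.042, RPS12 -0.035, RPS13 -0.20, RPS15 -0.090, RPS20 -0.045, RPS26 -0.093, RPS3 -0.18, RPS3A 0.058 and RPSA -0.056. With all probes of a gene averaged they were RPL22 0.049, RPLP0 -0.055, RPS15 -0.0056 and RPS3A 0.018. With treated RNA read as Cy5 on all arrays, added after seeing the data, 7 member genes had an unadjusted p under 0.05, 9 lay below 0, and 19 members and some related genes turned sign: EEF1A1 0.34, MRPL58 0.098, MRPS11 0.17, RACK1 0.042, RPL10 0.024, RPL11 0.14, RPL13A 0.10, RPL14 0.026, RPL22 0.15, RPL23 0.32, RPL26L1 0.015, RPL27 -0.033, RPL29 0.16, RPL35 0.027, RPL7 -0.26, RPL7L1 -0.10, RPLP2 0.45, RPS10 0.13, RPS16 0.15, RPS18 0.38, RPS21 0.16, RPS23 0.26, RPS28 0.39, TPT1 0.27 and UTP3 -0.14. Over the omissions of 1 array, the genes that turned sign at least once ranged as follows: MRPL58 -0.23 to 0.043, RPL11 -0.099 to 0.059, RPL14 -0.21 to 0.0020, RPL22 -0.068 to 0.043, RPL23 -0.088 to 0.064, RPL27 -0.027 to 0.095, RPL30 -0.19 to 0.072, RPL36AL -0.093 to 0.020, RPL5 -0.19 to 0.011, RPL6 -0.035 to 0.082, RPL7L1 -0.023 to 0.078, RPLP0 -0.056 to 0.10, RPLP2 -0.18 to 0.11, RPS12 -0.035 to 0.11, RPS13 -0.20 to 0.26, RPS15 -0.090 to 0.14, RPS18 -0.16 to 0.056, RPS20 -0.057 to 0.075, RPS23 -0.12 to 0.088, RPS26 -0.093 to 0.17, RPS28 -0.19 to 0.13, RPS3 -0.18 to 0.20, RPS3A -0.062 to 0.058, RPS4X -0.082 to 0.036 and RPSA -0.056 to 0.22. The cause was not tested. For the 7 genes with treated RNA read as Cy5 on all arrays, the share of all probes at that limit is not given. The other settings turned no member. The ratio of each array is itself a comparison within that array. No paired analysis was possible because, beyond that, the arrays form 1 group and share numbers with no other.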
